A study of Mus musculus with 4 samples.

Results

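GABA and glutamate are the main fast transmitters of the brain, and a neuron that releases either must make it and load it into vesicles. Glutamate decarboxylases make GABA from glutamate, the vesicular inhibitory amino acid transporter packs it, plasma membrane transporters clear it and GABA transaminase breaks it down. Glutamate, which every cell holds, becomes a transmitter where a vesicular glutamate transporter packs it. Midbrain dopamine neurons are known to release GABA and, in part, glutamate beside dopamine, and they lie among GABAergic and glutamatergic neurons of the substantia nigra and the ventral tegmental area. The genes of these steps measured here were Gad1, Gad2 and Gadl1 (glutamate decarboxylases and their relative), Slc32a1 (vesicular loading of GABA), Slc6a11 (GABA uptake), Abat (GABA transaminase) and the vesicular glutamate transporters Slc17a6 and Slc17a7. Of 9 genes chosen by name, 8 had probe sets that the platform's annotation assigns to that symbol alone, which is 17 probe sets of 45037 and 8 genes of 18193 in all, and Slc17a8 is not analysed here.

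RNA came from adult midbrain of mice of both sexes, 6 to 12 weeks old, of the Slc6a3 JD1640 TRAP line. These mice carry a BAC in which the Slc6a3 gene drives a GFP-tagged ribosomal protein, EGFP/RPL10A, so the tag depends on the activity of that BAC at 1 transgene insertion, and founders on FVB were bred to C57BL6/j. TRAP (translating ribosome affinity purification) captures tagged ribosomes with the mRNA they hold, and was measured on 2 arrays (replicates 2 and 4). The other 2 arrays (replicates 1 and 2) are labelled unbound (total) RNA and called input in the study and here. The paper describes input as measuring the RNA of the whole midbrain. The label does not settle whether captured ribosomes had been removed from it. Input came from the same transgenic line, and each array was made from 5 mice.

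Levels are in arbitrary expression units on the linear scale, and 50 units served as the background level. A probe set counts as above background if at least 1 fraction had both its arrays at 50 units or more, as 8 of the 17 probe sets did. The other 9 were below 50 units on every array, and 5 of these passed limma's threshold. Below background 55.5% of all probe sets passed, and 5 of the 9 held the same value on both arrays of each fraction, so no change was read from them. Log2 fold changes are TRAP over input from limma, with p-values adjusted over all 45037 probe sets and a threshold of 0.05. The median log2 fold change over all 17073 probe sets above background was 0.44, so 0 on this scale is not the middle of the data. The 12 dopamine neuron markers looked at (Th, Slc6a3, Slc18a2, Ddc, Drd2, Nr4a2, Pitx3, Foxa2, En1, Lmx1b, Ret and Gch1) all passed as higher in TRAP, with a median log2 fold change of 5.07, or 3.84 with the 3 whose input was below background (Pitx3, Foxa2 and En1) at their bound. Of the 12, 4 passed without TRAP replicate 2, 4 without TRAP replicate 4, 8 without input replicate 1, 7 without input replicate 2 and 6 with values under 50 units raised to 50. Th, which makes the precursor of dopamine, was at 326 and 386 units in input and 16613 and 20947 in TRAP. Over all genes above background, each by its brightest probe set, 18.7% rose. The tag is driven by Slc6a3, and the paper lists most of these markers as enriched on these same arrays. Their rise is thus not independent evidence.

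Gad2 and Gadl1 had log2 fold changes of opposite sign that passed the threshold, while that of Gad1, also negative, did not pass. For this reason the 250 bases upstream of the annotated start of the decarboxylase genes and their relative are shown. They are from RefSeq (GRCm38.p6), 5′ to 3′ on the gene's strand, and capitals mark the GC box GGGCGG on either strand.
Gad1 (chr2:70561879-70562128, plus strand): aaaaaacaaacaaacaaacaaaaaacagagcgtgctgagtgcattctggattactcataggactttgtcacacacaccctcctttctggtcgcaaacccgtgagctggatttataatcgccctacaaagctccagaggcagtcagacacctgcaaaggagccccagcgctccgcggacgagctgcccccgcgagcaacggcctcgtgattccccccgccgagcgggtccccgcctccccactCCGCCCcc
Gad2 (chr2:22622077-22622326, plus strand): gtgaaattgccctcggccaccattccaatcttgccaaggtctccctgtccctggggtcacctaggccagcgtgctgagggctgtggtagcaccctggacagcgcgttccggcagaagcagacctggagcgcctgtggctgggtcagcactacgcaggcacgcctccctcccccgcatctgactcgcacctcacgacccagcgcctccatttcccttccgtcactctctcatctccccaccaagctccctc
Gadl1 (chr9:115909205-115909454, plus strand): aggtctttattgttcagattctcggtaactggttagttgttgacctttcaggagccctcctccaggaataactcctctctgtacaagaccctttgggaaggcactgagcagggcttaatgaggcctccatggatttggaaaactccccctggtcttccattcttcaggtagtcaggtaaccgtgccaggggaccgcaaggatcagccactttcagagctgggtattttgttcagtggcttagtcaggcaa
The Gad1 and Gad2 sequences were richer in CG dinucleotides, with 17 and 13, than that of Gadl1, with 3, beside a median of 6 over 32851 promoters. Their GC content was 58%, 64% and 50% (median of all 52.4%). Of these 3 sequences, that of Gad1 alone held the GC box, which 32.7% of all promoters of this length hold. It alone also held the letters TATAAA (12.4%), on the opposite strand at -141 from the start. The letters CCAAT (33.8%) were in that of Gad2 alone. All were searched on both strands. These matches describe the letters of this stretch, and the arrays did not measure the promoters.

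Of the 8 probe sets above background, 2 fell in TRAP (those of Gad2 and Slc6a11) and 1 rose (Gadl1). Over all probe sets above background 9.13% fell and 18.8% rose, a split that depends on the scaling (2038 fell and 2222 rose after quantile normalization, 3867 and 3745 after centring). By sign alone, 6 of the 8 log2 fold changes were negative, beside 35.1% of all. The other 5, those of Gad1, Slc32a1, Abat and both of Slc17a6, did not pass, and at an unadjusted p under 0.05 from limma 4 probe sets passed, the brighter one of Slc17a6 added. Both TRAP arrays lay below both input arrays for 4 of the 8 probe sets (24.9% of all), above them for 1 (51.5% of all), and the fractions overlapped for 3. The paper described robust depletion of Gad1 and Gad2 and enrichment of Gadl1 on these arrays. Their directions are thus not independent evidence. The lower mean of Gad1 in TRAP did not pass here, and the rise of Gadl1 is given below only as a bound. Slc6a11 and Gadl1 counted as above background only through the fraction in which they were high.

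**Figure D1:**
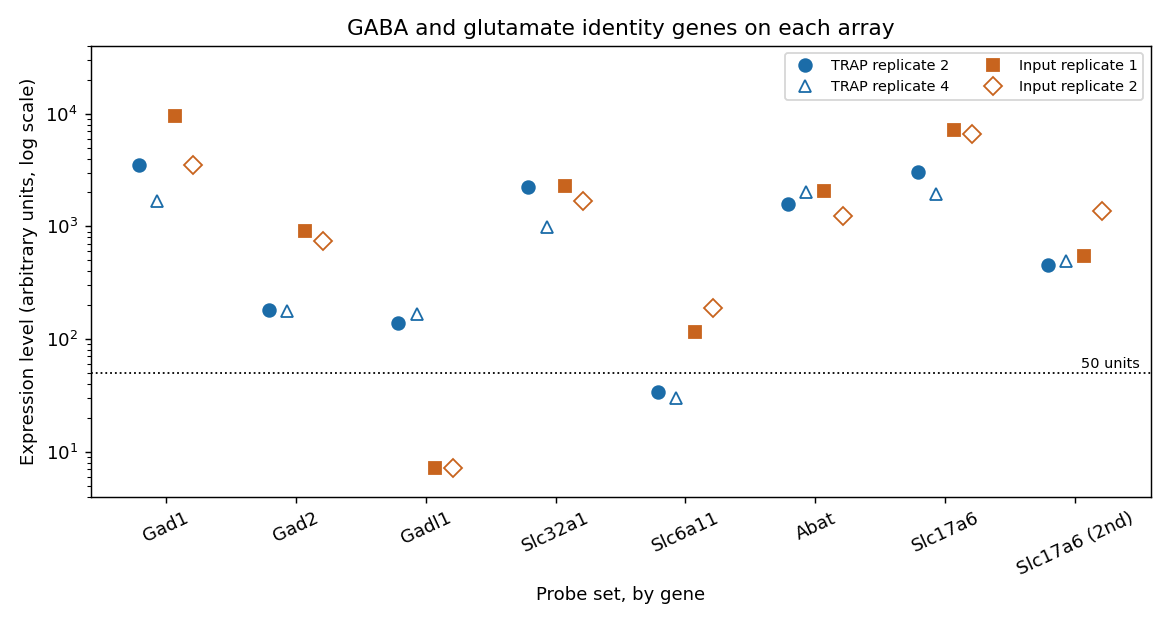
Expression level (arbitrary units, log scale) of the 8 probe sets above background, by gene. Circles and triangles are TRAP replicates 2 and 4, squares and diamonds input replicates 1 and 2, and the dotted line is 50 units. The 2 fractions are apart for Gad2, Gadl1, Slc6a11 and both probe sets of Slc17a6 and overlap for Gad1, Slc32a1 and Abat.

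Gad2, which encodes the decarboxylase form bound to synaptic vesicle membranes, was measured at 180 and 178 units on TRAP replicates 2 and 4 and at 914 and 742 units on input replicates 1 and 2. The TRAP arrays were nearly equal and each far below either input array. The fall was 4.61-fold (log2 fold change -2.20, standard error [SE] 0.14, limma adjusted p = 0.00737), from 828 ± 122 units in input to 179 ± 1.58 in TRAP (SD, n = 2). Without TRAP replicate 2 or TRAP replicate 4 the log2 fold change was -2.21 and -2.20, and its adjusted p from limma 0.0913 and 0.0937. A second probe set of Gad2 lay between 6.11 and 12.5 units on all arrays and gives no level.

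Gad1, which encodes the decarboxylase of the cell body that makes most of the brain's GABA, was measured at 3530 and 1676 units on TRAP replicates 2 and 4 and at 9647 and 3529 units on input replicates 1 and 2. TRAP replicate 2 and input replicate 2 were thus at the same level, and the fractions overlapped. The mean was 2603 ± 1311 units in TRAP and 6588 ± 4326 in input (SD, n = 2), with a log2 fold change of -1.26 (SE 0.84, limma adjusted p = 0.306). The 2 arrays of a fraction differed 2.11-fold in TRAP and 2.73-fold in input, a larger gap than that of all but 5.54% and 4.47% of probe sets above background. Without input replicate 1 the log2 fold change was -0.54, and without input replicate 2 it was -1.99 (adjusted p = 0.661 and 0.273 from limma). The second probe set of Gad1 was between 4.59 and 7.76 units. The paper proposes that the Gad1 signal left in TRAP is probably unspecific background, which was not tested here.

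Gadl1, a relative of the decarboxylases known to act on aspartate and cysteine sulfinate and to yield beta-alanine and hypotaurine, was measured at 140 and 166 units in TRAP and at 7.14 units on both input arrays. It was the only probe set of the 8 whose TRAP arrays lay above its input arrays. Since input was below background, the rise is a bound of at least 3.05-fold against 50 units (adjusted p = 0.00129 from limma on the deposited values). With values under 50 units raised to 50 its log2 fold change was 1.61 and its adjusted p 0.0559 from limma. The equal input values, below background, give no estimate of the spread between the input pools. The second probe set of Gadl1 was below background on every array, at 11.2 and 5.43 units in TRAP and 5 units on both input arrays, and so shows no rise of its own.

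Slc32a1, the transporter that loads GABA and glycine into vesicles, was measured at 2251 and 986 units on TRAP replicates 2 and 4 and at 2304 and 1697 units on input replicates 1 and 2. TRAP replicate 2 was between the input arrays and replicate 4 below both. The log2 fold change was -0.41 (SE 0.59, limma adjusted p = 0.596), and without TRAP replicate 4 it turned to 0.19 (adjusted p = 0.711 from limma). Its other 3 probe sets were between 4.58 and 7.54 units.

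Slc6a11, a GABA transporter found mainly on astrocytes, was measured at 34.2 and 29.7 units in TRAP, below background, and at 116 and 189 units on input replicates 1 and 2. The fractions did not overlap. The fall was at least 2.96-fold against 50 units (adjusted p = 0.0375 from limma on the deposited values). The call was lost when TRAP replicate 2 (limma adjusted p = 0.164), TRAP replicate 4 (0.183) or input replicate 2 (0.0566) was left out, and with values under 50 units raised to 50 (0.204). The second probe set of Slc6a11 read 4.58 units on both TRAP arrays and 4.59 on both input arrays. All 10 astrocyte markers looked at had negative log2 fold changes, beside 35.1% of all probe sets above background. Their median was -1.74, or -1.64 with Sox9, below background in TRAP, at its bound. Of the 10, 2 were called as lower, Slc1a3 and Sox9, beside 6.87% of all genes above background. Without TRAP replicate 2, TRAP replicate 4 or input replicate 2, 0 were called, as with values raised to 50, without input replicate 1 there was 1, and after centring 8 were called. Their summed level was 13584 and 7747 units on TRAP replicates 2 and 4 against 29931 and 36151 on input replicates 1 and 2, none being below background on all 4 arrays. TRAP is made to capture mRNA of tagged ribosomes, and input stands for RNA of the whole midbrain. Markers of other cells were measured in TRAP too, as the summed levels of the astrocyte markers show. The part of astrocyte RNA in the fall of Slc6a11 was not tested.

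Abat, the mitochondrial transaminase that breaks down GABA and is found in neurons and astrocytes, was measured at 1577 and 2017 units on TRAP replicates 2 and 4 and at 2049 and 1227 units on input replicates 1 and 2. Both TRAP arrays lay between the input arrays. The log2 fold change was 0.17 (SE 0.38, limma adjusted p = 0.728), and its sign turned after quantile normalization (-0.34) and after centring on bright probe sets (-0.24). The second probe set of Abat read 4.58 units on both TRAP arrays and 4.62 on both input arrays.

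Slc17a6, the vesicular glutamate transporter of subcortical neurons, was measured on its brighter probe set at 3022 and 1942 units on TRAP replicates 2 and 4 and at 7106 and 6544 units on input replicates 1 and 2. Both TRAP arrays were below both input arrays. The mean was 2482 ± 764 units in TRAP and 6825 ± 397 in input (SD, n = 2), a log2 fold change of -1.49 (standard error 0.30) that missed the threshold (adjusted p = 0.0597 from limma). It passed after quantile normalization (log2 fold change -2.00, adjusted p = 0.042 from limma), after centring (-1.90, 0.0169), with the probe sets above background alone (-1.49, 0.0307), with an intensity trend (-1.49, 0.0319) and without TRAP replicate 2 (-1.81, 0.0444). It did not pass without TRAP replicate 4 (-1.17, 0.0696), input replicate 1 (-1.43, 0.226) or input replicate 2 (-1.55, 0.213), nor when low values were raised to 50 units (-1.49, 0.195) or as the mean of both probe sets (-1.18, 0.0929).
The second probe set of Slc17a6 was at 456 and 495 units in TRAP and at 544 and 1365 units on input replicates 1 and 2. Here too the fractions did not overlap, but input replicate 1 was close to TRAP (log2 fold change -0.86, SE 0.62, limma adjusted p = 0.336). The 2 probe sets differed in which input array was higher.
Slc17a7, the vesicular glutamate transporter typical of cortical neurons, was below background on every array, at 7.33 units on both TRAP arrays and 16.5 on both input arrays.

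**Figure D2:**
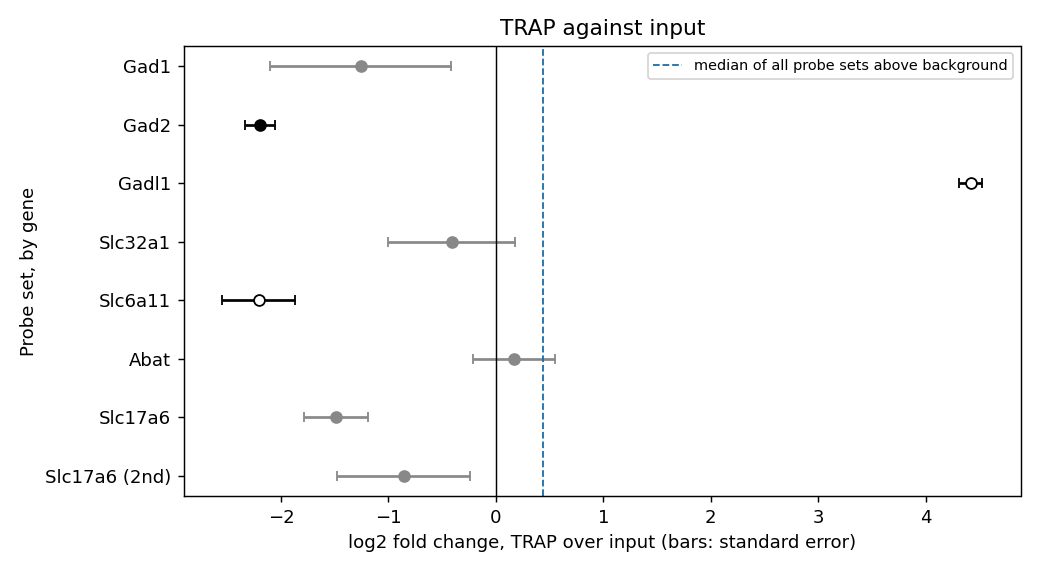
TRAP against input on the log2 scale (fold change) for the 8 probe sets above background. Bars are standard errors from limma, black marks probe sets that passed the threshold, open circles those with 1 fraction below background, and the dashed line the median of all probe sets above background (0.44). The places of the open circles, Gadl1 and Slc6a11, are not measured sizes. Gad2 (-2.20) lies at the left, and Abat (0.17) and Slc32a1 (-0.41) lie nearest to 0.

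Against all probe sets above background, Gad2 stood low, with 6.19% of them at a lower log2 fold change. The brighter probe set of Slc17a6 had 10.9% below it, that of Gad1 12.7%, Slc32a1 25.3% and Abat 40.5%. Gadl1 and Slc6a11, with 1 fraction below background, were not ranked. The probe sets ranked against do include such ones, at their deposited values.

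The fractions share replicate number 2. Input was taken alongside TRAP in each replicate, but nothing states that equal numbers mark 1 pool of mice. Between these 2 arrays Gad1 was at an equal level, Gad2 was 4.13-fold lower in TRAP, and Slc17a6 was 2.17-fold lower on its brighter and 2.99-fold lower on its second probe set. Slc32a1 and Abat were 1.33-fold and 1.29-fold higher in TRAP. These are values of 2 arrays with no test.

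The TRAP arrays differed from each other for some of these genes and not for others. Slc32a1 was higher on TRAP replicate 2 by 1.19 log2 units, Gad1 by 1.07 and the brighter probe set of Slc17a6 by 0.64. Gad2 differed by 0.02, Gadl1 by -0.25 and Abat by -0.36. Of the 8 probe sets, 5 were higher on replicate 2, beside 44.9% of all probe sets above background.
Of the other markers of GABAergic neurons, the 10 above background were all higher on TRAP replicate 2 (median 1.84 log2 units). They include Pvalb, a calcium-binding protein, at 2569 and 800 units, and Sst, the neuropeptide somatostatin, at 551 and 90.5. Their summed level over all 16 measured was 3784 and 1096 units on TRAP replicates 2 and 4 and 5034 and 4976 units on input replicates 1 and 2. Of these 16, 6 were below background, namely Tal2, Sox14, Lhx5, Dlx2, Dlx5 and Dlx6.
The gap of Gad2 between the TRAP arrays was thus smaller than that of each of these 10 markers, and was exceeded by 91.7% of all probe sets above background.
Markers of other cells moved along. All 9 oligodendrocyte markers measured were higher on TRAP replicate 2 (median 1.49, summed level 82673 and 35733 units on TRAP replicates 2 and 4 and 98824 and 101522 on the input arrays), as were 9 of 10 astrocyte markers (median 0.84). All 7 of the other glutamatergic markers above background were so as well (median 0.51), but only 1 of the 12 dopamine neuron markers (median -0.33). Their part in the levels of Gad1, Slc32a1 and Slc17a6 in TRAP was not tested.

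**Figure D3:**
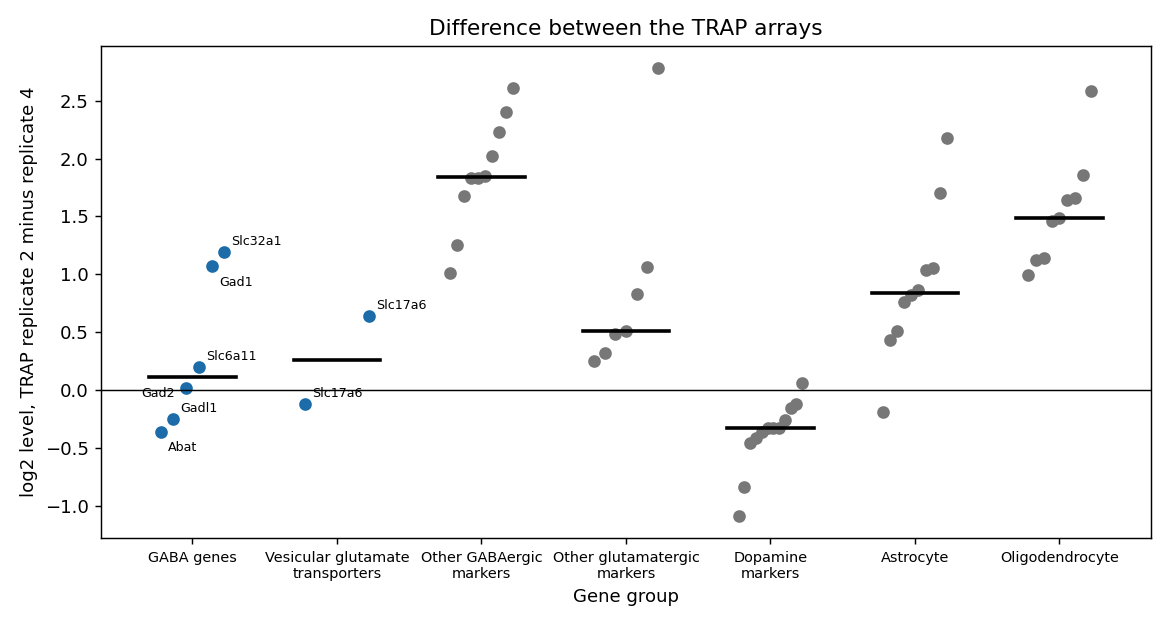
Log2 level on TRAP replicate 2 minus replicate 4. Each point is a probe set above background (for marker lists, the brightest of a gene), and black lines are medians. Gad1 (1.07) and Slc32a1 (1.19) lie with the lower of the other GABAergic markers, while Gad2 (0.02), Gadl1 (-0.25) and Abat (-0.36) lie at or under 0.

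Negative log2 fold changes were held by 35.1% of all probe sets above background. Other markers of GABAergic neurons had lower mean log2 values in TRAP, though the fractions overlapped for some, among them Sst. All 10 above background had negative log2 fold changes (median -1.91, or -1.25 with Gata3 and Dlx1, below background in TRAP, at their bound), with 0 called at the adjusted threshold of limma and 0 at an unadjusted p under 0.05. After centring 3 were called as lower, without TRAP replicate 2 also 3, and with the probe sets above background alone 1. Gata2 and Tal1, transcription factors of midbrain GABAergic neurons, had -1.42 and -2.54 (adjusted p = 0.313 and 0.121 from limma), and Six3, another transcription factor, had -2.92 (0.171). Of 7 other glutamatergic markers above background, 6 had negative values (median -1.55, or -1.26 with genes below background in TRAP at their bound) and 1 fell, Neurod2, a neuronal transcription factor, at 16.3 and 11.7 units in TRAP and 127 and 175 in input (at least 2.98-fold, adjusted p = 0.0143 from limma). Over all genes above background, each by its brightest probe set, 6.87% fell, 18.7% rose and 25.5% did either. The call of Neurod2 was lost without any 1 of the 4 arrays (adjusted p up to 0.0989 from limma). The serotonergic markers Tph2 and Slc6a4 were uneven between the input arrays, with Tph2 at 604 and 69.3 units on input replicates 1 and 2 and 294 on both TRAP arrays. Of 3 cholinergic markers all were below background. Of the microglia markers 3 of 8 were above background and 1 fell, Cx3cr1, and of the endothelial markers 2 of 6 were and 1 fell, Slco1a4. Both were below background in TRAP, so that their falls are bounds of at least 4.35-fold and 1.79-fold. The call of Cx3cr1 was lost without any 1 of the 4 arrays (limma adjusted p up to 0.137), and that of Slco1a4 without TRAP replicate 2 (0.179) or TRAP replicate 4 (0.187) and with values raised to 50 (0.807).

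The genes around these transmitters were mixed. Over all genes above background, each by its brightest probe set, 18.7% rose, 6.87% fell and 25.5% did either. Of 28 genes above background in the lists of GABA uptake, breakdown and alternative synthesis, taurine and beta-alanine metabolism, the glutamate and glutamine cycle, other vesicular transporters and pyridoxal phosphate enzymes, 3 rose and 4 fell. Without TRAP replicate 2 these were 1 and 1, and without TRAP replicate 4 they were 1 and 0. Without input replicate 2 they were 7 and 1.
In the GABA list 1 of 5 genes above background rose (median log2 fold change 0.09). This was Aldh1a1, an aldehyde dehydrogenase known as an alternative route to GABA in dopamine neurons, at 31253 and 35618 units in TRAP and 7465 and 4063 in input (log2 fold change 2.60, SE 0.42, limma adjusted p = 0.0403). Its call was lost without TRAP replicate 2 (0.175) or TRAP replicate 4 (0.191). Aldh9a1, which oxidises the aldehyde made from putrescine to GABA, had -1.05 (0.0852), Odc1, which makes putrescine, had 0.81 (0.0836), Maob had -0.36 (0.483), and Aldh5a1, which follows Abat in GABA breakdown, had 0.09 (0.838). The GABA transporters Slc6a12 and Slc6a13 were below background on all arrays.
Slc18a2, the vesicular monoamine transporter that is also known to serve GABA loading in dopamine neurons, rose from 418 and 226 units in input to 7947 and 16938 in TRAP (log2 fold change 5.24, SE 0.65, limma adjusted p = 0.0259), a call lost without any 1 of the 4 arrays (limma adjusted p up to 0.128). Of the other vesicular transporters 1 more was above background, Slc17a5, a sialic acid transporter of lysosomes, which had 0.38 (0.0609).

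Around Gadl1, 1 of 6 genes of taurine and beta-alanine metabolism above background fell and 0 rose (median log2 fold change -0.05). Over all genes above background 6.87% fell and 18.7% rose. Carns1, which makes carnosine from beta-alanine, was at 220 and 204 units in TRAP and 449 and 418 in input (log2 fold change -1.03, SE 0.07, limma adjusted p = 0.00836), and it missed the threshold without any 1 of the 4 arrays (adjusted p up to 0.073). Csad, the main decarboxylase of cysteine sulfinate, was at 149 and 152 units in TRAP and 150 and 170 in input (-0.08, adjusted p = 0.479 from limma), and Slc6a6, the taurine transporter, had -0.01 (0.968). Cdo1, which makes cysteine sulfinate, had 1.11 (0.0825).
Of 13 genes of the glutamate and glutamine cycle above background, 1 rose and 3 fell (median 0.22). Slc1a6, a glutamate transporter of neurons, was at 103 and 116 units in TRAP and at 19.7 and 18.8 in input, under background. It thus rose at least 2.19-fold (limma adjusted p = 0.00243 on the deposited values). With values under 50 units raised to 50 it missed the threshold (limma adjusted p = 0.0583). Slc38a3, a glutamine transporter of astrocytes, fell at least 2.33-fold (adjusted p = 0.00594 from limma on the deposited values, 0.125 with values under 50 units raised to 50). Slc1a3, an astrocyte glutamate transporter, had -2.31 (0.0237) and Slc38a2, a transporter of neutral amino acids, -1.10 (0.0249). All 3 calls were lost without TRAP replicate 2 or TRAP replicate 4 (adjusted p up to 0.135 from limma). Of the mitochondrial carriers and transaminases, Slc25a22, Slc25a12, Got1 and Got2 had values of 1.21, 0.98, 1.72 and 0.92 and did not pass. The pyridoxal phosphate enzymes Pdxk and Pdxp, which handle the cofactor of the decarboxylases, had 0.43 and 1.08 and did not pass (adjusted p = 0.171 and 0.119 from limma).

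**Figure D4:**
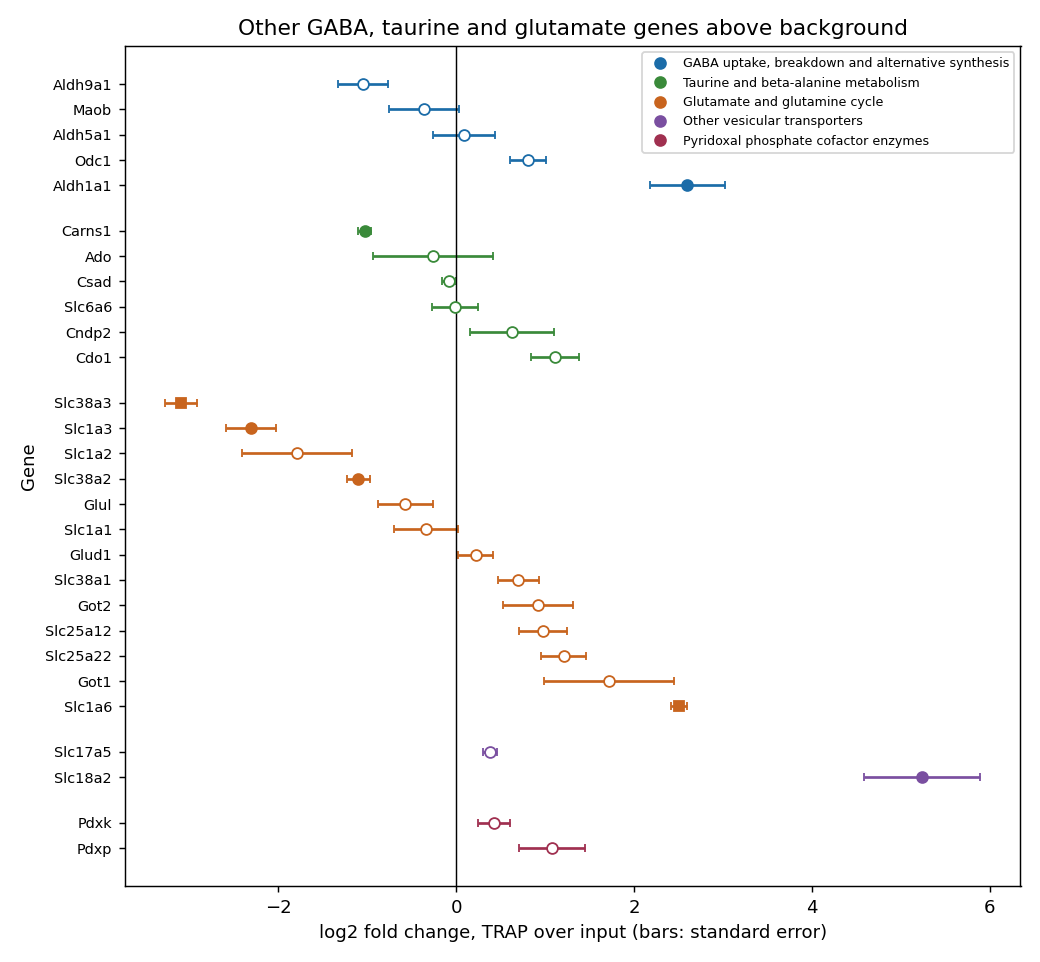
TRAP against input on the log2 scale (fold change) for 28 genes above background in 5 lists of GABA, taurine and glutamate metabolism, each by its brightest probe set. Bars are standard errors from limma, filled marks passed the threshold, and squares (Slc1a6 and Slc38a3) have 1 fraction below background, so that their plotted place is not a measured size. Of the circles, Slc18a2 (5.24) and Aldh1a1 (2.60) are the filled ones at the right, and Slc1a3 (-2.31), Slc38a2 (-1.10) and Carns1 (-1.03) those at the left.

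Among 8513 genes at 50 units or more on all 4 arrays, those most like Gad1 over the arrays were Dock10, Fam120aos, Ss18, Spag1 and Piga, at root mean square distances of 0.08 to 0.12 log2 units after each gene was centred on its own mean. Within 0.2 log2 units there were 10 genes for Gad1 and 72 for Slc17a6. The 5 most like Slc17a6 were Prps2, Pdk4, Rmdn1, Ankrd28 and Bcl6, at distances of 0.03 to 0.07. With 4 arrays this likeness describes the pattern of these arrays only.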

How the data were processed

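RNA of TRAP and input fractions (2 arrays each, 5 mice per array) was amplified and hybridized to Affymetrix mouse expression arrays. The authors processed the arrays with GCRMA, per the labels, which name no version, and deposited log2 values, 1 per probe set and array. Levels are 2 raised to these values. No further normalization was applied.
Without the 64 control probe sets of 45101, 45037 were fitted with limma 3.58.1 in R 4.3.3 (1 coefficient for the fraction, empirical Bayes, 2-sided, Benjamini-Hochberg adjustment). The prior had 0.317 degrees of freedom beside 2 residual ones, and the number of arrays limits the precision. With 2 arrays against 2 an exact permutation test cannot go below p = 0.333. Each replicate is 1 pool, so p-values rest on the spread between these pools. Equal values below background, as in the input of Gadl1, hold no such spread. The fit took the arrays as independent, though replicate 2 of both fractions may come from 1 pool.
Genes were named from the platform's annotation (34945 probe sets with 1 symbol, 18193 genes), with the brightest probe set for each gene. The genes, lists and tests were chosen with earlier results of these data known. Named were all transmitter genes with every probe set, the called genes of each list, some of the 4 brightest others that the rule allowed, and the 5 genes most like Gad1 and Slc17a6. Genes outside this rule (Cdo1, Got1, Got2, Slc25a12, Slc25a22, Tal1, Gata3, Dlx1, Slc6a12, Slc6a13 and the GABAergic markers below background) were named after their values were seen. The signal of a probe set that also binds a related transcript could not be split. Where 1 fraction was below 50 units, folds are bounds against 50 units. The fit was also run on simulated arrays with known falls, a check of its estimates that gives no support to single calls here. Alternatives were quantile normalization, centring, other filters, thresholds and priors, the mean of a gene's probe sets, and leaving out each array.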

Additional observations from a re-analysis of the deposited data

How the results depend on the processing

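No paired analysis was possible because the fractions share only replicate number 2. Over the transmitter genes above background, 60 alternative values kept their direction and side of the threshold, 5 reversed, 5 newly passed and 7 no longer passed. With values under 50 units raised to 50, 0 of the probe sets rose and 1 fell, and at an adjusted p under 0.01 from limma 1 fell. Leaving out 1 array gave 0 to 3 that fell and 1 that rose.
Log2 fold changes over the left-out arrays ran from -2.35 to -2.05 for Gad2, -2.57 to -1.86 for Slc6a11 (TRAP below background, so not a size), -1.81 to -1.17 for Slc17a6, -1 to 0.19 for Slc32a1 and -0.20 to 0.54 for Abat. With values raised to 50, Gadl1 had 1.61 and Slc6a11 -1.56, neither past the threshold. Slc17a6 passed with -2.00 (quantile normalization), -1.90 (centring) and -1.49 (probe sets above background alone, and intensity trend), but not without either input array (limma adjusted p = 0.226 and 0.213), with values raised to 50 (0.195) or as the mean of its probe sets (0.0929). Abat reversed to -0.34 (quantile normalization) and -0.24 (centring), neither called.
Over all probe sets above background, 3213 rose and 1559 fell. Values raised to 50 gave 824 and 467, an adjusted p under 0.01 from limma gave 944 and 632, quantile normalization gave 2222 and 2038, centring gave 3745 and 3867, a background of 100 units gave 1006 that fell, and left-out arrays gave 1340 to 2652 and 842 to 1313. Centring moved the median of all by -0.41.
Of the 28 genes around them, tried after the data were seen, 5 rose with the probe sets above background alone, 7 fell after centring, and 0 rose and 0 fell with values raised to 50. Left-out arrays gave 1 to 7 that rose and 0 to 3 that fell. The causes were not tested. Signal near background limits Gadl1, Slc6a11, Slc17a7 and every second probe set but that of Slc17a6.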
